A study of Canis lupus familiaris with 51 samples.

Results

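Heart and spleen hemangiosarcomas were compared in dogs of breeds other than Golden Retriever. The members were all tumours whose tissue label is heart (n = 5) or spleen (n = 12) and whose breed label is not Golden Retriever, 17 of the 51 tumours of the series. All are labelled as tumour tissue, no treatment is given, and RNA was measured by sequencing in bulk. The 5 hearts came from a neutered male Border Collie Mix aged 6 years (heart 1), an intact female Bernese Mountain Dog aged 5.9 years (heart 2), a spayed female Portuguese Water Dog aged 11.1 years (heart 3), a neutered male Labrador retriever aged 10 years (heart 4) and an intact male Saluki aged 11.2 years (heart 5). The 12 spleens came from 3 German Shepherd Dogs (spleens 3, 6 and 8), 2 Keeshonds (spleens 2 and 5), 2 Portuguese Water Dogs (spleens 1 and 12), and 1 each of Bullmastiff (spleen 4), Gordon Setter (spleen 7), Boxer (spleen 9), Labrador Retriever (spleen 10) and Briard (spleen 11). They were 6 females and 6 males, 9 of them neutered, aged 8.5 to 13.5 years. The 26 Golden Retriever tumours of these organs (6 hearts, 20 spleens) share no tumour with this comparison and were used to see whether its differences recurred.

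Hemangiosarcoma is a malignant tumour whose cells resemble those lining blood vessels, and it is common in dogs. The spleen, an organ that filters blood and houses lymphoid cells, and the heart, most often its right atrium, are frequent primary sites. A bulk tumour sample holds tumour cells together with the host tissue, blood and immune cells around them. Fewer cells of a type and less RNA per cell cannot be told apart in such samples.

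Values are FPKM (sequenced fragments scaled for transcript length and library size), and differences are heart minus spleen of log2(FPKM + 1), a scale on which low genes show less than their full change. The 16382 genes carry Ensembl identifiers that the deposited table does not pair with symbols, and 0 of them matched the symbol table used here. The tissue labels could therefore not be checked against heart, spleen or blood vessel markers, no pathway could be counted, and genes are described by their values. At most 2 identifiers are printed in each direction.

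Estimated depth and number of detected genes overlapped widely between the organs. The depth estimate assumes that libraries were not scaled against each other. Relative depth, solved from the steps of low FPKM values, ran from 0.827 to 1.401 in hearts and from 0.817 to 1.449 in spleens. Between 10754 and 11491 genes reached 1 FPKM in hearts and between 10570 and 11558 in spleens. Neither measure differed between organs beyond the spread (exact permutation tests, two-sided, p = 0.405 and 0.989, adjusted p = 0.809 and 0.989 over 6 measures, which also held age, summed FPKM, the share of the 10 highest genes and similarity to the other tumours). Age averaged 8.84 ± 2.68 years in hearts (SD, n = 5) and 10.5 ± 1.37 years in spleens (SD, n = 12), with hearts 1 and 2 younger than every spleen dog (exact permutation p = 0.105, adjusted p = 0.630). Spleens 5 and 7 stood apart from the rest. They had the lowest median correlations with the other 16 tumours, 0.799 and 0.792, and 67 and 36 genes at 10 FPKM or more that exceeded every other tumour by 10-fold, against at most 5 such genes elsewhere.

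2 of 12253 tested genes were higher in heart than in spleen and 0 were lower (limma, adjusted p under 0.05, 0.0163% and 0% of genes). Both were low in most spleens and stood above 2 FPKM in all 5 hearts. Before adjustment, 1279 genes had a p under 0.05 (10.4%). Of these, 762 genes were higher (6.22%) and 517 lower (4.22%) in heart, and 362 and 255 of them differed by at least 2-fold. The plot of fold change against p shows the 2 called genes above a shoulder of others on the heart side.

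**Figure D1:**
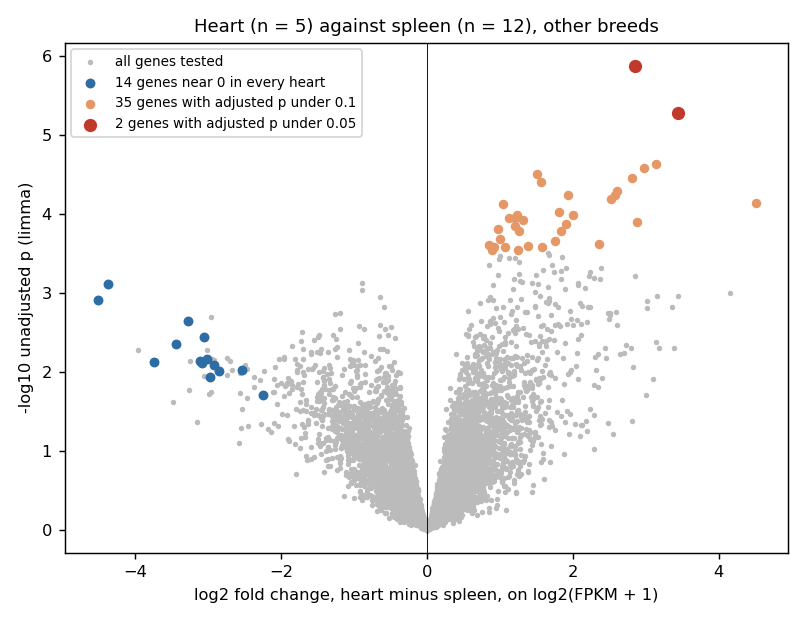
Each point is 1 of 12253 genes, with the log2 fold change of heart (n = 5) minus spleen (n = 12) on the horizontal axis and the negative log10 of the unadjusted limma p on the vertical axis. The 2 genes with an adjusted p under 0.05 (red) and the 35 with an adjusted p under 0.1 (orange and red) all lie on the side higher in heart, and 14 genes near 0 in every heart (blue) lie on the other side.

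ENSCAFG00000002987 had the smallest p. It stood at 12.2, 2.69, 15.7, 18.9 and 14.5 FPKM in hearts 1 to 5, against a lowest value of 0.0524, a median of 0.355 and a highest value of 4.44 FPKM in the 12 spleens. 4 of the hearts lay above every spleen, and heart 2 lay below 1 spleen (spleen 5). The 5 hearts averaged 12.8 ± 6.14 FPKM and the 12 spleens 0.909 ± 1.27 FPKM (mean ± SD). The organs differed by 2.85 ± 0.40 on the log2 scale (SE), with an adjusted p of 0.0161 (limma).

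ENSCAFG00000009445 had the larger fold of the 2 called genes. It stood at 28.3, 6.34, 25.1, 58.3 and 19.7 FPKM in hearts 1 to 5, against a lowest value of 0, a median of 0.513 and a highest value of 9.43 FPKM in spleens. Again heart 2 was the lowest heart, and it lay below 1 spleen, here spleen 11. Hearts averaged 27.5 ± 19.1 FPKM and spleens 1.89 ± 2.79 FPKM (mean ± SD). The difference was 3.45 ± 0.54 on the log2 scale (SE), with an adjusted p of 0.0316 (limma).

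**Figure D2:**
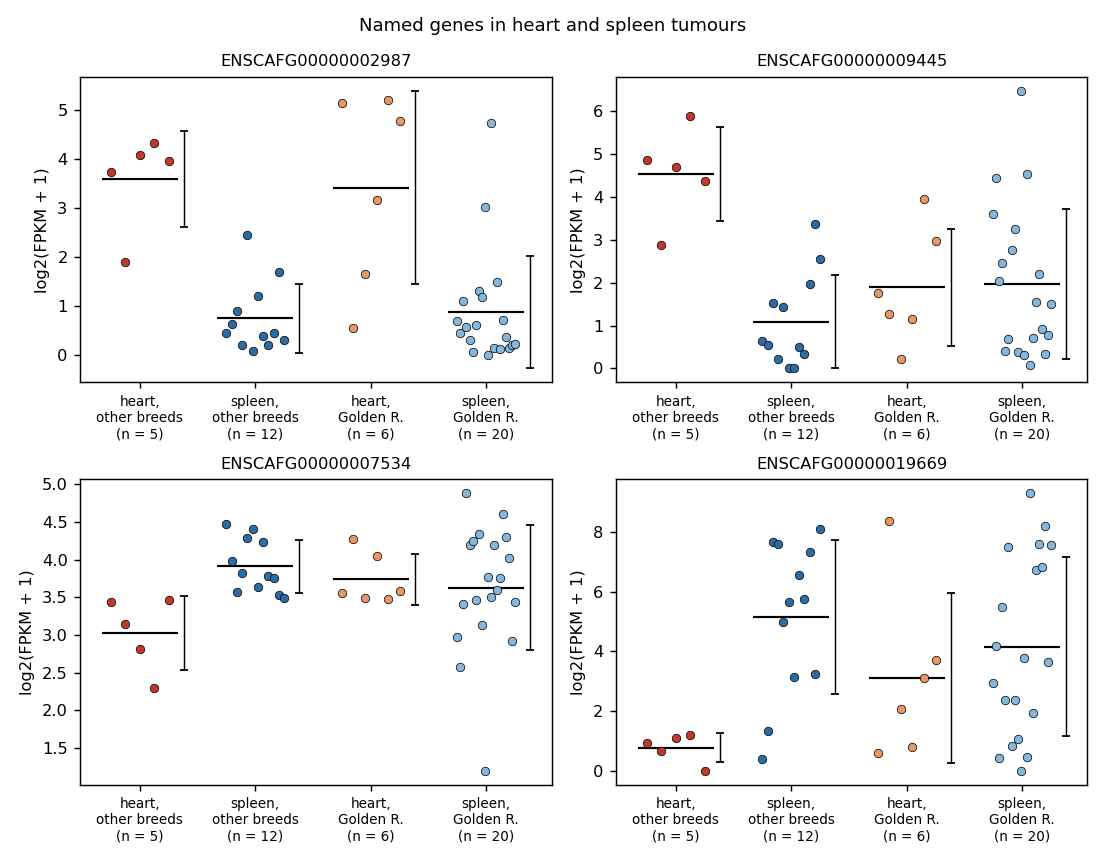
Each point is 1 tumour, on a log2(FPKM + 1) axis, for the 2 genes called higher in heart (top) and the 2 genes with the smallest p among those lower in heart (bottom), which did not pass the adjusted threshold. Horizontal lines are group means and the bars beside them are SD. The 5 other-breed hearts and 6 Golden Retriever hearts are both high for ENSCAFG00000002987 on average. ENSCAFG00000009445, chosen on the other-breed tumours, is lower on average in the Golden Retriever hearts than in the other-breed hearts. The 2 groups of hearts overlap for it. Golden Retriever hearts 5 and 6 (14.6 and 6.92 FPKM) lie above other-breed heart 2 (6.34 FPKM).

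The number of called genes depended on single tumours. It was 0 without heart 1, heart 3 or heart 4 (1222, 1055 and 821 genes at an unadjusted p under 0.05), 10 without heart 2 and 16 without heart 5. It was 36 without spleen 11 and 14 without spleen 12, and 1 without spleen 1, 2, 4, 5, 6 or 8. In each of these fits all called genes were higher in heart. Without both spleens that stood apart the count was 2, and ENSCAFG00000009445 was not among the genes called (log2 fold change 3.37, limma adjusted p = 0.0658). Among the spleens, leaving out spleen 11 or 12 raised the count most.

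A wider group of 35 genes reached an adjusted p under 0.1 (limma, 0.286% of genes tested), all of them higher in heart. This group was chosen on the comparison itself after its values were seen, so its level here is a description. Its log2 fold changes ran from 0.85 to 4.50 with a median of 1.58, against a median of 0.01 over all genes, and 31 of the 35 differed by at least 2-fold. The mean log2(FPKM + 1) over the 35 genes was 3.67, 3.27, 3.81, 4.43 and 3.70 in hearts 1 to 5, and ran from 1.38 to 2.81 in spleens with a median of 1.74. The 2 highest spleens were spleen 11 at 2.81 and spleen 12 at 2.56. Spleen 11 held the highest spleen value for 14 of the 35 genes and spleen 12 for 8, while heart 4 held the highest heart value for 17.

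Among the rest of this group, 3 genes illustrate its range of abundance. The gene with the largest fold stood between 24.2 and 441 FPKM in hearts, against a spleen median of 1.65 and a spleen maximum of 61.6 FPKM, which is 4.50 ± 0.88 on the log2 scale (SE, adjusted p = 0.0699, limma). An abundant member stood between 173 and 507 FPKM in hearts and between 11.4 and 181 FPKM in spleens, a difference of 2.52 ± 0.49 in log2 units (SE, adjusted p = 0.0699, limma). A sparse member stood between 0.533 and 7.99 FPKM in hearts and at no more than 0.399 FPKM in any spleen, a difference of 1.52 ± 0.28 in log2 units (SE, adjusted p = 0.0689, limma). The ranges of the organs overlapped in the first 2 of these genes and not in the sparse one.

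Every heart exceeded every spleen for 15 of 12253 genes (0.122%), 8 of them within the group of 35. Every heart lay below every spleen for 4 genes (0.0326%). The differences in these 19 genes were not all large. The 15 had log2 fold changes from 0.40 to 2.81 with a median of 1.48, and the 4 had changes from -1.46 to -0.52. The most abundant of the 15 stood between 458 and 1063 FPKM in hearts and between 10.0 and 416 FPKM in spleens. It was also the most variable of them in spleens, with an SD of 1.76 on the log2 scale against 0.51 in hearts (limma adjusted p = 0.281).

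No gene lower in heart passed the threshold, and the smallest adjusted p in that direction was 0.141 (limma). With array weights, where atypical libraries count for less, limma called 201 genes lower and 223 higher, among them both genes named next (adjusted p = 0.0295 and 0.00772). The gene with the smallest p was ENSCAFG00000007534, with 9.80, 7.87, 6.02, 3.9 and 10.1 FPKM in hearts 1 to 5 and a lowest, median and highest value of 10.2, 12.9 and 21.2 FPKM in spleens. The groups did not overlap, although heart 5 and spleen 12 lay side by side. The organs differed by -0.88 ± 0.22 on the log2 scale (SE, adjusted p = 0.141, limma). The second was ENSCAFG00000019669, with 0.903, 0.599, 1.13, 1.29 and 0 FPKM in hearts 1 to 5. In spleens it reached 271 FPKM with a median of 50.9. Of the 12 spleens, 11 lay above every heart, and spleen 1 lay below 4 of the 5 hearts. The difference was -4.37 ± 1.08 on the log2 scale (SE, adjusted p = 0.141, limma), and its SD within spleens was 2.58 on the log2 scale.

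ENSCAFG00000019669 belonged to a group of 14 genes (0.114% of those tested) that were under 2 FPKM in every heart and had a spleen median of at least 10 FPKM. The reverse pattern, under 2 FPKM in every spleen with a heart median of at least 10, was met by 0 genes (0%). The patterns are not alike, since the reverse asks for low values in 12 tumours rather than 5, and nothing is read from the pair of counts. Both limits were set after the data were seen, so the level of this group between organs is a description. Log2 fold changes ran from -4.51 to -2.25 with a median of -3.07, and none passed the adjusted threshold. In 7 spleens (3, 4, 6, 8, 9, 10 and 12) at least 11 of the 14 reached 10 FPKM, and in the other 5 (1, 2, 5, 7 and 11) at most 3 did. Spleens 5 and 11 lay part-way, with medians over the 14 genes of 6.12 and 2.96 FPKM. The limit on the spleen median itself places the genes high in about as many spleens as it leaves low.

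The mean log2(FPKM + 1) over the 14 genes was 0.51, 0.42, 0.84, 0.41 and 0.41 in hearts 1 to 5. In spleens it ran from 0.31 in spleen 1 to 7.0 in spleen 12, both from Portuguese Water Dogs, with a median of 4.64. Spleens 1 and 2, at 0.31 and 0.57, lay within or below the range of the hearts. All 3 German Shepherd Dog spleens were high (5.19, 4.31 and 5.07), and the 2 Keeshond spleens were at 0.57 and 2.93. The 14 genes could share no member with the group of 35, since all 14 were lower and all 35 higher in heart.

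**Figure D3:**
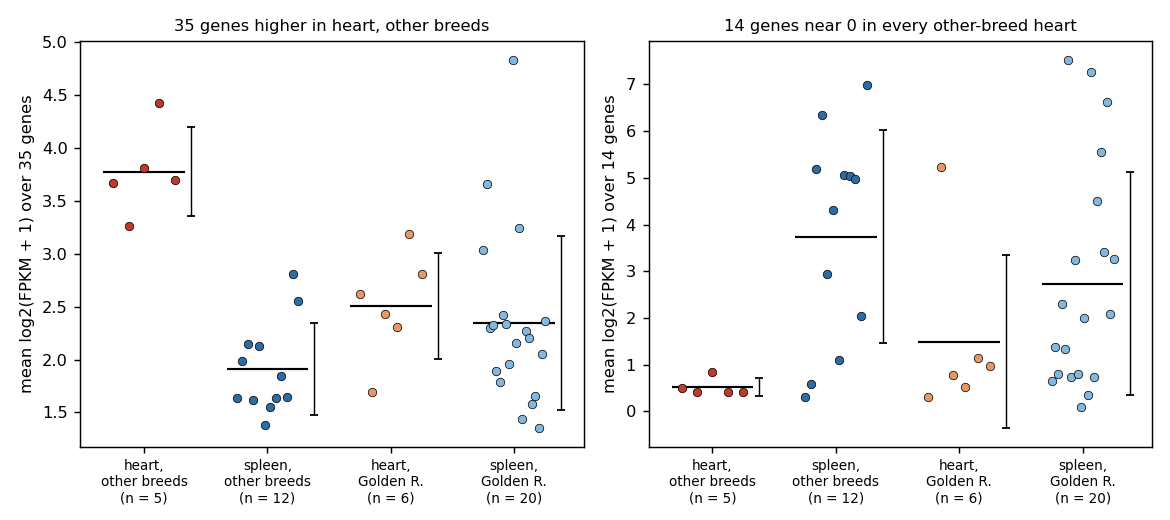
Each point is 1 tumour, with the mean log2(FPKM + 1) over the 35 genes with an adjusted p under 0.1 (left) and over the 14 genes under 2 FPKM in every other-breed heart (right). Lines are group means and bars are SD. On the left the 5 other-breed hearts stand at 3.27 to 4.43, a level raised by the choice of the genes on these tumours, and the 6 Golden Retriever hearts at 1.69 to 3.18. On the right 5 of the 6 Golden Retriever hearts lie near the other-breed hearts while 1 stands at 5.22.

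Golden Retriever tumours were used to ask which of these differences recurred in dogs outside the comparison. ENSCAFG00000002987 stood at 34.3, 0.460, 2.13, 7.89, 35.7 and 26.2 FPKM in the 6 Golden Retriever hearts, and its median in the 20 Golden Retriever spleens was 0.422 FPKM with a highest value of 25.3. All 6 hearts exceeded the spleen median, and the groups overlapped. The log2 fold change there was 2.54 ± 0.60 (SE, limma p = 0.000252, adjusted p = 0.148), close in size to the 2.85 of the other breeds, and the difference between the breed classes was 0.31 ± 0.81 (SE, limma adjusted p = 0.999). ENSCAFG00000009445 stood at 2.37, 1.41, 0.173, 1.21, 14.6 and 6.92 FPKM in Golden Retriever hearts and had a median of 1.88 and a highest value of 87.9 FPKM in Golden Retriever spleens. Its log2 fold change there was -0.08 ± 0.74 (SE, limma adjusted p = 0.998), and the difference between breed classes was 3.53 ± 1.01 (SE, limma p = 0.00117, adjusted p = 0.773). That last value shares its other-breed tumours with the choice of the gene.

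Of the 35 genes, 19 were higher in Golden Retriever hearts than spleens and 16 were not, where 48.1% of all genes were higher. Their median log2 fold change there was 0.06, against -0.01 over all genes tested in both. At an unadjusted p under 0.05, 2 of the 35 were higher in Golden Retriever hearts, where 2.96% of all genes were, and 9 genes in all (0.0719%) had an adjusted p under 0.1 there. The 2 were ENSCAFG00000002987 and the sparse member described above, whose log2 fold change in Golden Retrievers was 1.60 ± 0.32 (SE, limma adjusted p = 0.0609). The mean level of the 35 genes ran from 1.69 to 3.18 in Golden Retriever hearts. The other-breed hearts are the tumours that chose these genes, so no comparison of heart levels between the breed classes is made. Of the 20 Golden Retriever spleens, 2 reached the level of the other-breed hearts, at 3.66 and 4.83, the second being the highest of all heart and spleen tumours.

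The 35 genes varied together among the Golden Retriever spleens, which had no part in choosing them. Their mean pairwise correlation was 0.50 over those 20 tumours and 0.30 over the 12 other-breed spleens, against 0.003 and 0.007 for pairs among all tested genes. The value for all genes averages positive and negative pairs, while the 35 were all higher in heart, so it is not a like baseline. The 12 other-breed spleens took part in choosing the 35 genes and the 14. Pairs share libraries, and these values are given as descriptions. The 14 genes had mean pairwise correlations of 0.89 in Golden Retriever spleens and 0.87 in other-breed spleens.

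All 14 genes were lower in Golden Retriever hearts than spleens (52.1% of all genes were), with a median log2 fold change of -1.23, although 0 of the 14 reached an unadjusted p under 0.05 there (limma, background 1.94%). The 14 varied together (mean pairwise correlation 0.89 in Golden Retriever spleens), so their shared direction is not 14 separate observations. In 5 of the 6 Golden Retriever hearts at most 1 of the 14 reached 10 FPKM, and in Golden Retriever heart 2 all 14 did. In the 20 Golden Retriever spleens at least 13 of the 14 reached 10 FPKM in 5 tumours, and at most 6 did in the other 15. Golden Retriever spleens 1, 2, 3, 5, 7, 9, 10, 11, 12, 14 and 19 also had at most 1 at 10 FPKM. Few of the 14 at that level was thus not particular to the hearts. ENSCAFG00000019669 itself was at 330 FPKM in Golden Retriever heart 2 and between 0.509 and 12.1 FPKM in the other 5 hearts. ENSCAFG00000007534 differed by 0.11 ± 0.34 in log2 units in Golden Retrievers (SE, adjusted p = 0.994, limma), of opposite sign to the other breeds.

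**Figure D4:**
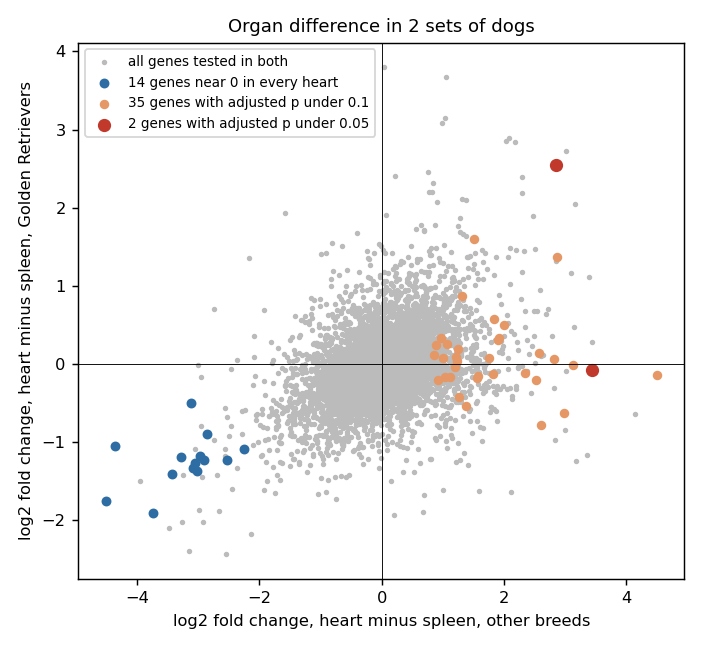
Each point is 1 of 12169 genes tested in both sets of dogs, with the log2 fold change of heart minus spleen in other breeds on the horizontal axis and in Golden Retrievers on the vertical axis. The 35 genes (orange, with the 2 called genes in red) scatter around 0 in Golden Retrievers with a median of 0.06, and the 14 genes (blue) all lie below 0 with a median of -1.23.

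Across all 12169 genes tested in both sets of dogs, the organ differences were positively related, with a Pearson correlation of 0.38 and a Spearman correlation of 0.30. These are correlations across genes, which are not independent replicates. The direction was the same for 59.6% of genes. Among the genes at an unadjusted p under 0.05 in other breeds it was the same for 64.0% of those higher in heart (484 of 756) and for 78.3% of those lower in heart (405 of 517). Of the 1279 genes at that level, 67 also reached it in Golden Retrievers, which is 5.24% of the other-breed list and 10.9% of the Golden Retriever list, and 4.9% of all genes tested in Golden Retrievers reached it. Direction was the same for 63 of the 67. Among all genes tested in both sets with a limma unadjusted p under 0.05 in Golden Retrievers, it was the same for 401 and opposite for 158.

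The organ difference itself was tested between breed classes with an interaction term over 43 tumours. Among 12844 genes, 0 (0%) had a limma adjusted p under 0.05, and the smallest was 0.693. Before adjustment 551 lay under 0.05 (4.29%), 342 of them more positive (2.66%) and 209 more negative (1.63%) in other breeds. Within Golden Retrievers limma called 2 of 12520 genes, both higher in heart (0.016%). In other breeds the first differed by 0.55 ± 0.33 in log2 units (SE, adjusted p = 0.565, limma), and the second was too low there to be tested.

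Pairs of other-breed hearts correlated more closely on average than pairs of spleens did. The mean correlation of log2 levels between pairs of hearts was 0.916 (0.858 to 0.945), between pairs of spleens 0.845 (0.688 to 0.951), and between hearts and spleens 0.856. The median SD of a gene was 0.38 in hearts and 0.55 in spleens on the log2 scale, and 77.0% of genes varied less in hearts. The gap was smaller without spleens 5 and 7. Then the mean correlation between spleens was 0.876, the median SD 0.47, and 66.8% of genes varied less in hearts. Heart 5 was the least typical heart, and without it the mean correlation between hearts was 0.934. In Golden Retrievers the correlations were 0.891 between hearts and 0.868 between spleens, and 67.4% of genes varied less in hearts. These spreads are descriptions over pairs that share tumours and were not tested, and the SDs rest on fewer hearts than spleens. The similarity measure that was tested, a tumour's median correlation with the other 16, did not differ between organs (exact permutation p = 0.254, adjusted p = 0.763). Most of the other 16 are spleens for a heart as well as for a spleen, so it does not measure closeness within an organ.

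The main axes of variation among the 17 tumours placed the hearts together but not apart from all spleens. The sign of each component was set so that hearts averaged higher than spleens. On component 1, with 22.9% of the variance, hearts scored 35.03 ± 18.9 and spleens -14.6 ± 38.4 (mean ± SD), and the hearts lay between 7.96 and 57.9. On component 4, with 9.41%, hearts scored 21.1 ± 10.8 and spleens -8.77 ± 25.6. Exact permutation tests over all splits of the 17 tumours gave p = 0.0175 and 0.0238, both with an adjusted p of 0.0594 over the 5 components tested. Components 2, 3 and 5 had adjusted p values of 0.815, 0.840 and 0.815 in the same exact permutation test. Spleen 11 lay within the range of the hearts on both axes, at 18.4 and 27.6, and spleen 12 did so on component 4 (27.6) but not on the first (-48.0). Spleens 1, 2 and 5 lay within it on component 1 only (50.9, 31.4 and 17.9), and spleen 3 on component 4 only (7.44).

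**Figure D5:**
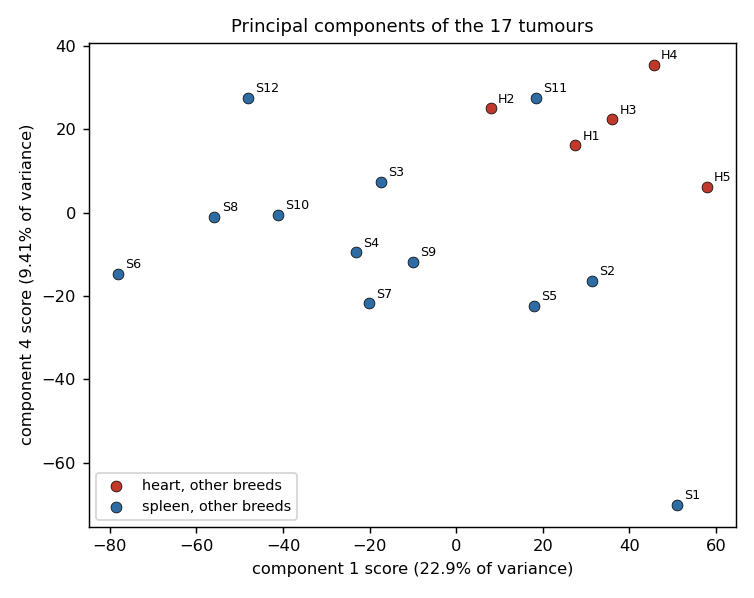
Each point is 1 of the 17 other-breed tumours, hearts H1 to H5 in red and spleens S1 to S12 in blue, with scores on component 1 (22.9% of variance, horizontal) and component 4 (9.41%, vertical) in arbitrary units. The hearts lie at positive scores on both axes, and S11 lies among them.

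Of the genes very high in a single other-breed heart, 2 are described here, picked after values were seen. Genes at 10 FPKM or more that exceeded every other tumour of the comparison by 10-fold numbered 3, 5, 1, 0 and 1 in hearts 1 to 5. ENSCAFG00000016539 stood at 222 FPKM in heart 1 and at no more than 0.543 FPKM in hearts 2 to 5, with at most 0.440 FPKM in the 12 spleens, and it did not pass the filter on low values here. In Golden Retrievers it stood between 368 and 982 FPKM in hearts 4, 5 and 6. ENSCAFG00000009613 stood at 2747 FPKM in heart 2, 2.91 FPKM in heart 3 and 0.121 FPKM or less in the other 3 hearts, against at most 4.32 FPKM in spleens, a difference of 2.29 ± 1.30 in log2 units (SE, adjusted p = 0.551, limma). In Golden Retrievers it stood at 870 FPKM in heart 3, and the organs differed by 2.18 ± 0.79 in log2 units (SE, p = 0.0105, adjusted p = 0.778, limma).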

How the data were processed

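RNA-seq was deposited by the authors as 1 table of FPKM values with 16382 genes and 51 tumours. Total RNA came from RNeasy columns and the library chemistry was TruSeq, per the labels' protocols. The submitters' processing notes name FastQC 0.11.2, TopHat 1.4.1, Cuffdiff and the build CanFam3.1. The version of Cuffdiff, its annotation, filters, strand settings and any scaling between libraries were not given in the sources used here. No table used here gave sequences for these identifiers, so none are printed.

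Groups follow the tissue and breed labels, and tumours are numbered in sample order within a group. Whether every tumour is from its own dog is not stated, and the p-values reflect only how these samples spread. Pairs of the 5 hearts correlated at no more than 0.945 and pairs of the 12 spleens at no more than 0.9515. None of the 17 libraries was treated as a duplicate. A gene entered a fit where 3 or more of its tumours reached 1 FPKM. Fits used limma 3.58.1 in R 4.3.3 on log2(FPKM + 1) (empirical Bayes with a mean trend, two-sided, Benjamini-Hochberg adjustment over all genes tested, threshold 0.05). The 17 tumours were fitted alone without covariates, Golden Retrievers likewise, and the difference between breed classes in 1 fit over 43 tumours. Organ differences of single measures were tested with exact permutation tests. Scripts were tested on simulated data.

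Low FPKM values fall on steps taken as worth 1 fragment each, and these were used to estimate the relative depth of libraries. The estimate assumes no scaling between libraries, and whether any was applied was not given. In a median pair of 43 libraries 20.7% of low genes shared the main step, and 100% of pairs lay within 0.05 (log2) of the solved relative depths. Absolute depth is unknown, and counting intervals are not given.

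The rule for named genes took the 2 genes in each direction with the smallest adjusted p that passed, or else the smallest p. Cell type lists were written by symbol and could not be scored. The 2 single-heart genes named last, the group of 35 and the group of 14 were chosen after values were seen. Members and lists were chosen with earlier results of these data known.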

Additional observations from a re-analysis of the deposited data

Results flagged for a closer look

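In 23 sets of 5 or 6 heart tumours, the highest or lowest tumour was compared with the others by its gap to the nearest tumour as a share of the range. Chance alone sets apart about 1 tumour in 20 such sets, and 4 were set apart here. The sets share tumours and are not independent, and the 14 genes were chosen as under 2 FPKM in every other-breed heart. Heart 2 was the low tumour for ENSCAFG00000002987, at 1.88 on the log2(FPKM + 1) scale (gap 0.758 of the range over the 5 other-breed hearts). Heart 3 was the high tumour for the 14 genes near 0 in other-breed hearts, at a mean level of 0.842 (gap 0.77). Golden Retriever heart 2 was the high tumour for the same 14 genes among the 6 Golden Retriever hearts, at 5.22 (gap 0.831). Heart 4 had the largest share of FPKM in its 10 highest genes among other-breed hearts, 9.79% (gap 0.717).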

How the results depend on the processing

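With log2(FPKM + 0.1) the count of 2 genes between organs in other breeds was 1, and that gene was neither of the 2. Their limma adjusted p values were then 0.067 for ENSCAFG00000002987 and 0.11 for ENSCAFG00000009445. The count was 1, with ENSCAFG00000002987 the gene called, with no filter on low values, or with sex or neuter status as covariate. It was 5 with age as covariate, 0 when only genes averaging 5 FPKM or more were tested (979 had an unadjusted p under 0.05), 0 when 4 groups shared 1 estimate of spread (1334), 0 without the CHAD titles, which are heart 1 and spleen 1 (1536), and 0 in the 5 tumours of breeds with both organs, with breed as block (465). That last fit held hearts 3 and 4 and spleens 1, 10 and 12, so few tumours that nothing is read from its 0. In it ENSCAFG00000002987 and ENSCAFG00000009445 had log2 fold changes of 3.77 and 3.46. With array weights, where atypical libraries count for less, 424 genes passed, 223 of them higher and 201 lower in heart. Leaving out 1 tumour gave 0 to 36 genes. Of the settings that could be fitted, ENSCAFG00000002987 kept its call in 23 of 30 and ENSCAFG00000009445 in 13 of 31, both with unchanged direction, with log2 fold changes of 2.67 to 4.18 and 3.11 to 4.75 and limma adjusted p values of 0.000531 to 1 and 0.00457 to 1. The 2 named genes lower in heart passed only with array weights (limma adjusted p = 0.0295 and 0.00772). The difference between breed classes called 0 genes in all settings but array weights, with 5. In Golden Retrievers the count of 2 became 5 with log2(FPKM + 0.1) or no filter, 0 for genes averaging 5 FPKM or more (395), 8 with quantile normalization and 72 with array weights. There ENSCAFG00000002987 passed with array weights (limma adjusted p = 0.0087), ENSCAFG00000009445 turned to 0.0515 with log2(FPKM + 0.1) and 0.26 with array weights, and ENSCAFG00000007534 to -0.0299 with array weights, all near 0. Of the 5 components, 0 passed in the main setting, 2 with median-ratio rescaling, and 0 to 2 when 1 tumour was left out, 1 of them without spleen 1 and 2 without spleen 11. The cause of these changes was not tested. No paired analysis was possible because the replicate numbers follow sample order and pair no tumours. The settings for Golden Retrievers and components, and leaving out spleens 5 and 7, were added after the data were seen.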

Other observations

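The 35 genes higher in other-breed hearts had mean log2(FPKM + 1) levels of 2.67, 2.18 and 1.58 in the 3 liver tumours, 2.46 in the cutaneous tumour, 1.74 in the metastatic tumour, 2.28 in the metastatic abdominal mass, 2.57 in the other abdominal mass and 2.18 in the tumour of undetermined histogenic origin. The genes were chosen as high in the 5 other-breed hearts, so these levels are not compared with those hearts. The 14 genes near 0 in those hearts stood at 0.62 to 3.19 in the liver tumours and at 4.08 in the metastatic tumour.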
